A study of Mus musculus with 6 samples.

Results

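The 10 genes described here make or break down prostaglandins and leukotrienes: Ptgs1, Ptgs2, Ptges, Ptgds, Ptgis, Hpgd, Alox5, Alox5ap, Lta4h and Ltc4s. They were picked by gene symbol, with earlier results of these data known, and each had 1 row among the 57010 rows of the expression table. RNA came from the skin of 6 wild-type mice, 1 library per mouse, when a diabetic ulcer experiment ended. In 3 mice the gel put on the skin carried CST, which the series title gives as cortistatin, a peptide of the somatostatin family. Gel with Yoda1 went to the other 3 mice; Yoda1 is a synthetic opener of the mechanically gated calcium channel Piezo1. How diabetes was induced, the age of the mice and the dose are not stated in the labels, and skin without either drug was not analysed here, so each difference sets one drug against the other.

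Prostaglandins and leukotrienes are short-lived lipid signals made from arachidonic acid, which phospholipases cut from membranes. The cyclooxygenases encoded by Ptgs1 and Ptgs2 turn it into prostaglandin H2, and a set of terminal synthases then makes the single prostanoids, among them prostaglandin E2, which widens vessels and raises pain sensitivity in inflamed skin. The other branch starts with 5-lipoxygenase, which works together with its membrane helper protein and yields leukotriene A4; from this come leukotriene B4, which attracts neutrophils, and leukotriene C4, which makes vessels leak. Ptgs1 is known as the steadily expressed cyclooxygenase and Ptgs2 as the one induced by cytokines and growth factors.

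The 250 bases upstream of both cyclooxygenase genes are shown because their RNA differed so much in spread, 28.0-fold between the highest and the lowest library for Ptgs2 and 1.35-fold for Ptgs1 (RefSeq, GRCm38.p6, 5′ to 3′, plus strand), with matches to the motifs searched in capitals. Ptgs2 lies at chr1:150099781-150100030 and Ptgs1 at chr2:36230176-36230425.
Ptgs2: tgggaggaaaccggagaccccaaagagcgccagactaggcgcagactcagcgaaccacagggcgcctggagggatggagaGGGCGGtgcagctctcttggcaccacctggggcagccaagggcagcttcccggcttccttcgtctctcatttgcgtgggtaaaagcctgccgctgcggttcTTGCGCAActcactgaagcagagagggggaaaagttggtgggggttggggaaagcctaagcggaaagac
Ptgs1: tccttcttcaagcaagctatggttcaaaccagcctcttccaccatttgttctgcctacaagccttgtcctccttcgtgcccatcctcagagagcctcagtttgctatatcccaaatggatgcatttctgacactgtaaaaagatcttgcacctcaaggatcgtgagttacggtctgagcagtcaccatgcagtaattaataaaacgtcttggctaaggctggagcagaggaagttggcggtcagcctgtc
For this, 6 motifs were searched on both strands in the 300 bases that end 50 bases after the annotated start, in 32851 such windows. Positions count from that annotated start. Where transcription began in this skin was not measured, so distances to the true initiation site may differ. The palindrome TTGCGCAA, read by C/EBP factors, stood at -69 to -62 of Ptgs2 and in 0.183% of all windows. The GC box GGGCGG stood at -170 to -165 of Ptgs2 and in 35.7% of windows. After the annotated start of Ptgs2, the CRE core TGACG lay on the minus strand at 14 to 18 and overlapped the E-box CACGTG at 17 to 22. These occur in 20.8% and 7.15% of windows. The Ptgs1 window held none of the 6 motifs, which also included the AP-1 motif TGANTCA and the TATA box TATAAA, found in 7.81% and 13.6% of windows. A match describes letters only, and a link between the motifs and the spread of the RNA was not tested. Of the 10 genes 8 had a window, and Alox5ap and Ptgis had none. The palindrome, the CRE core and the E-box each occurred in Ptgs2 and in none of the other 7. The GC box occurred in Alox5, Hpgd and Ptges as well, the AP-1 motif in Ptgds and the TATA box in Hpgd.

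Values are FPKM, fragments scaled to gene length and to mapped depth, so levels of different genes can be set side by side. The depth behind them was 23791352 to 29620526 reads per library. The share of FPKM from mitochondrially encoded genes was 6.72% for CST mouse 1 and 7.61% for Yoda1 mouse 3, whereas the remaining 4 libraries had 3.25% to 3.81%; the same 2 libraries had the lowest scores on the first principal component. The labels tag the samples as keratinocytes, and the keratin genes were abundant, but markers of fibroblasts (3616 to 11409 FPKM summed over 6 genes), macrophages (820.4 to 3592 over 7) and skeletal muscle (53.1 to 7492 over 6) were present too, so the libraries are read as whole skin. Skeletal muscle markers separated the treatments, with sums of 4043 to 7492 in CST and 53.1 to 2781 in Yoda1 skin, a median difference of 4.19 and 5 of 6 genes whose groups did not overlap; the part of this tissue in the values below was not tested. In whole tissue, fewer cells of a type and less RNA per cell cannot be told apart. Each difference subtracts Yoda1 from CST in log2(FPKM + 1), tested with limma over the 14588 genes that averaged 1 FPKM or more, with Benjamini-Hochberg adjustment. The test called 0 genes (0%) at an adjusted p under 0.05; 584 genes (4%) had an unadjusted p under 0.05. With limma-voom, run on the recovered reads, the numbers were 0 and 603. All 10 genes were tested, 0 were called and 1 had an unadjusted p under 0.05, so no direction below is an adjusted call.

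Of the 10 genes, Ptgs2 was the one whose groups did not overlap: its RNA was higher in every CST library than in any Yoda1 library. Over all tested genes 6.59% had groups that did not overlap, 4.52% with CST above, so 1 in 10 genes is near that background. Ltc4s, Alox5ap, Ptgis and Ptgds varied more than 5-fold between libraries with overlapping groups, whereas Ptgs1, Lta4h and Hpgd differed by less than 2-fold across all 6 mice. The median difference over the 10 genes was -0.04, beside -0.01 over all tested genes. Of the 10 differences 4 were positive and 6 negative, beside 6882 and 7706 over all tested genes.

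**Figure D1:**
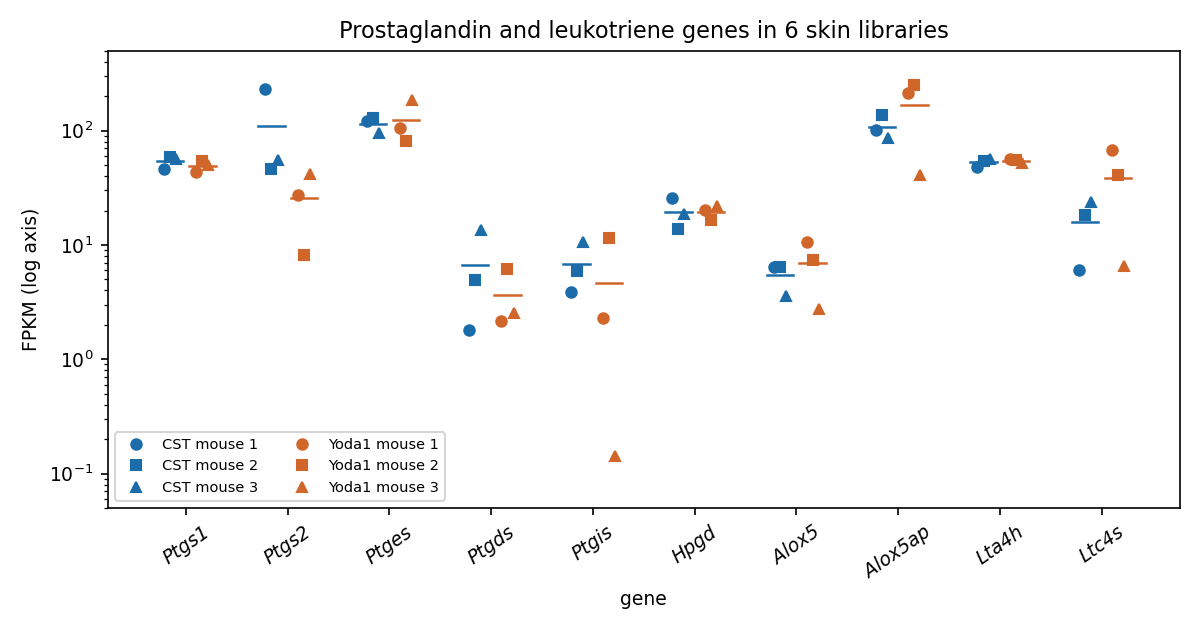
FPKM on a log axis for the 10 genes; points are libraries (blue CST, orange Yoda1, the shape gives the mouse number) and bars are group means. Ptgs2 is the gene whose 3 CST points, 46.6 to 229.8, all lie above its 3 Yoda1 points, 8.20 to 41.9, and Ptgis in Yoda1 mouse 3 is the lowest point at 0.143.

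In order of mean level over the 6 libraries the genes ran Alox5ap (138 FPKM), Ptges (119), Ptgs2 (68.1), Lta4h (53.8), Ptgs1 (51.4), Ltc4s (27.2), Hpgd (19.5), Alox5 (6.19), Ptgis (5.70) and Ptgds (5.18). Most neighbours in this order overlapped in range. The exception was Hpgd over Alox5, where each Hpgd value lay above each Alox5 value. Ptgs2 stood above Lta4h by its mean but in 1 of 6 libraries only, CST mouse 1.

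Ptgs2, the inducible cyclooxygenase (ENSMUSG00000032487, chromosome 1, 150100031 to 150108227 on GRCm38), measured 229.8, 46.6 and 55.1 FPKM in CST mice 1, 2 and 3. The Yoda1 mice had 27.3, 8.20 and 41.9 FPKM in the same order of number. CST mouse 1 stood far above the other 5 libraries and Yoda1 mouse 2 far below them, and the gap between the groups lay between 41.9 and 46.6. These values rest on 578 to 13332 reads per library, so counting error is small beside the spread between mice. Group means were 110.5 ± 103 in CST and 25.8 ± 16.9 in Yoda1 skin (SD, n = 3), 4.28-fold apart. The difference was 1.93 (SE 0.72, 95% interval 0.25 to 3.61; limma adjusted p = 0.962, unadjusted p = 0.0295), and Ptgs2 stood 447th of the 14588 genes by p. Leaving out CST mouse 1 gave 1.21 and leaving out Yoda1 mouse 2 gave 1.29, with 95% intervals that then included 0 (-0.35 to 2.77 and -0.19 to 2.77). With library weights estimated by limma it was 1.07 (limma adjusted p = 0.113).

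Ptgs1, the cyclooxygenase of resting tissue and platelets (ENSMUSG00000047250, chromosome 2, 36230426 to 36252272), measured 46.3, 58.6 and 56.4 FPKM in the CST mice and 43.4, 54.0 and 49.6 in the Yoda1 mice. The groups overlapped and the highest value was 1.35 times the lowest. The difference was 0.13 (SE 0.20, 95% interval -0.33 to 0.59; limma adjusted p = 1.000), an interval that holds changes of either sign. The 2 cyclooxygenase RNAs thus had similar levels in most libraries: the Ptgs2 to Ptgs1 ratio was 4.96, 0.794 and 0.978 in the CST mice and 0.628, 0.152 and 0.845 in the Yoda1 mice. Ptgs2 exceeded Ptgs1 in CST mouse 1 and in no other library. Of the log2 ratio, the difference between treatments was 1.80 with overlapping groups (exact two-sided permutation p = 0.20, 0.600 adjusted over the 3 ratios computed; 3 against 3 mice cannot give a p below 0.1).

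Among the terminal synthases, Ptges encodes the inducible membrane enzyme that makes prostaglandin E2 and usually works beside Ptgs2 (ENSMUSG00000050737, chromosome 2, 30889471 to 30929863). It measured 120.5, 129 and 95.7 FPKM in the CST mice and 105, 81.8 and 185 in the Yoda1 mice. Its highest value was in Yoda1 mouse 3 and its lowest in Yoda1 mouse 2, so the Yoda1 group enclosed the CST group. The difference was -0.03 (SE 0.32, 95% interval -0.77 to 0.71; limma adjusted p = 1.000), and without Yoda1 mouse 3 it was 0.30. Hence the 4.28-fold gap in mean Ptgs2 stood beside mean Ptges values of 115 ± 17.3 and 124 ± 54.0 FPKM (SD, n = 3).

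Ptgis, the cytochrome P450 that makes prostacyclin in vessel walls and stroma (ENSMUSG00000017969, chromosome 2, 167191805 to 167240604), measured 3.88, 5.88 and 10.6 FPKM in the CST mice and 2.29, 11.4 and 0.143 in the Yoda1 mice. Yoda1 mouse 2 was the highest of all and Yoda1 mouse 3 the lowest, with 5 reads. The ratio of highest to lowest, 79.7, was the widest of the 10 genes and rests on those 5 reads. The difference was 1.02 (SE 0.78, 95% interval -0.79 to 2.84; limma adjusted p = 1.000). Leaving out Yoda1 mouse 3 gave 0.20, and leaving out Yoda1 mouse 2 gave 1.91. With a pseudocount of 0.1 it was 1.75 and with limma-voom on reads 1.84 (limma adjusted p = 1.000 for both).

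Ptgds, the lipocalin-type synthase of prostaglandin D2 (ENSMUSG00000015090, chromosome 2, 25466709 to 25470046), measured 1.80, 4.95 and 13.5 FPKM in the CST mice and 2.15, 6.21 and 2.53 in the Yoda1 mice. CST mouse 3 was highest and CST mouse 1 lowest, so here the CST group enclosed the Yoda1 group. The difference was 0.53 (SE 0.59, 95% interval -0.84 to 1.90; limma adjusted p = 1.000) and -0.08 without CST mouse 3. In CST mouse 3 the summed melanocyte markers were also highest, 90.0 FPKM against 13.5 to 19.4 in the other 5 libraries. Sums of suprabasal keratinocyte (8409), skeletal muscle (7492) and T cell markers (64.1) were highest in CST mouse 3 too. Yoda1 mouse 2, second by Ptgds, had a melanocyte sum of 18.1. The part of any of these cells in the Ptgds values was not tested.

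Hpgd, the dehydrogenase that starts the inactivation of prostaglandins (ENSMUSG00000031613, chromosome 8, 56294585 to 56321043), measured 25.6, 13.9 and 18.7 FPKM in the CST mice and 20.4, 16.5 and 21.8 in the Yoda1 mice. Here too the CST values enclosed the Yoda1 values. The difference was -0.05 (SE 0.26, 95% interval -0.65 to 0.56; limma adjusted p = 1.000). The ratio of Ptges to Hpgd, synthesis of prostaglandin E2 over its first step of removal, was 4.71, 9.26 and 5.13 in the CST mice and 5.13, 4.94 and 8.47 in the Yoda1 mice. Each group held 1 high library, CST mouse 2 and Yoda1 mouse 3, and the log2 ratios differed by 0.02 (exact two-sided permutation p = 1.00).

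**Figure D2:**
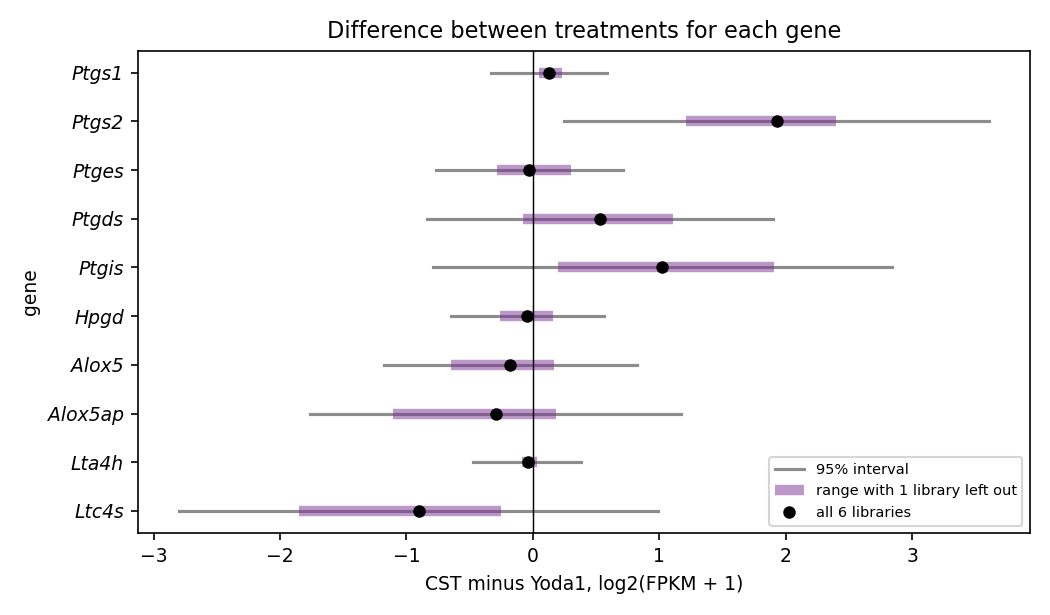
Difference between treatments for each gene, CST minus Yoda1 in log2(FPKM + 1); black points use all 6 libraries, grey lines are 95% intervals from limma and purple bars span the 6 fits that each leave out 1 library. The grey line of Ptgs2, 0.25 to 3.61, is the one that does not cross 0, and the purple bars of Ptgs2, Ptgs1, Ptgis and Ltc4s stay on one side of it.

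The leukotriene genes ranged from steady to variable over the libraries. Alox5, the 5-lipoxygenase of myeloid cells (ENSMUSG00000025701, chromosome 6, 116410077 to 116461178), measured 6.43, 6.38 and 3.57 FPKM in the CST mice and 10.7, 7.36 and 2.74 in the Yoda1 mice. Yoda1 mice 1 and 2 lay above all CST mice and Yoda1 mouse 3 below them. The difference was -0.18 (SE 0.43, 95% interval -1.18 to 0.82; limma adjusted p = 1.000).

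Alox5ap encodes the membrane protein that hands arachidonic acid to 5-lipoxygenase (ENSMUSG00000060063, chromosome 5, 149264767 to 149288153). It measured 101, 138 and 86.2 FPKM in the CST mice and 212, 252 and 41.2 in the Yoda1 mice. As with Alox5, Yoda1 mice 1 and 2 were the highest libraries and Yoda1 mouse 3 the lowest. The difference was -0.29 (SE 0.63, 95% interval -1.76 to 1.17; limma adjusted p = 1.000). Leaving out Yoda1 mouse 3 gave -1.11, and leaving out Yoda1 mouse 2 gave 0.18. Per length, Alox5ap RNA exceeded Alox5 RNA 15.0-fold to 34.3-fold within a library, with log2 ratios that differed by -0.11 between treatments (exact two-sided permutation p = 1.00).

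Ltc4s, which joins leukotriene A4 to glutathione to make leukotriene C4 (ENSMUSG00000020377, chromosome 11, 50236461 to 50238616), measured 6.07, 18.1 and 23.6 FPKM in the CST mice and 68.1, 41.0 and 6.50 in the Yoda1 mice. Again Yoda1 mice 1 and 2 lay above all CST mice, while Yoda1 mouse 3 lay close to CST mouse 1 at the bottom. The difference was -0.90 (SE 0.82, 95% interval -2.80 to 0.99; limma adjusted p = 1.000), from -0.25 without Yoda1 mouse 1 to -1.85 without Yoda1 mouse 3. With library weights estimated by limma Ltc4s was called lower in CST (-1.81, limma adjusted p = 0.0295), in a fit that called 9.24% of all tested genes and gave Yoda1 mouse 1 a weight of 12.8 against 0.193 for Yoda1 mouse 3; the weight estimation stopped before it converged.

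Lta4h, the hydrolase that makes leukotriene B4 from leukotriene A4 (ENSMUSG00000015889, chromosome 10, 93453411 to 93484875), measured 48.0, 54.5 and 56.5 FPKM in the CST mice and 56.1, 55.7 and 52.0 in the Yoda1 mice. It was the steadiest of the 10 genes, with a highest value 1.18 times the lowest. The difference was -0.04 (SE 0.18, 95% interval -0.47 to 0.38; limma adjusted p = 1.000). The enzyme leading to leukotriene B4 and the enzyme leading to leukotriene C4 thus differed in spread, 1.18-fold against 11.2-fold over the 6 libraries.

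Extreme values came from several libraries: Yoda1 mouse 2, with a mitochondrial share of 3.38%, held the lowest Ptgs2 and the highest Alox5ap value. The libraries with the high mitochondrial share, CST mouse 1 and Yoda1 mouse 3, held the highest Ptgs2 and the lowest Alox5ap value, respectively. In the other 4 libraries, an alternative chosen after the data were seen, Alox5ap measured 86.2 and 138 FPKM in CST against 212 and 252 in Yoda1 skin (difference -1.07, limma adjusted p = 0.322), and Ltc4s 18.1 and 23.6 against 41.0 and 68.1 (-1.31, limma adjusted p = 0.322). Ptgs2 differed by 1.68 there (limma adjusted p = 0.350). None of the 10 genes was called in those 4 libraries, where limma called 0 of 14672 genes and 1835 had an unadjusted p under 0.05.

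The profiles of Ptgs2 and of Alox5ap over the libraries were set beside those of all other tested genes, by the Euclidean distance between log2(FPKM + 1) values centred on each gene's mean over the 6 libraries. Nearest to Ptgs2 were Hcar2, a receptor for niacin and ketone bodies (distance 0.68), Clec4e, a C-type lectin of myeloid cells (0.76), Il1a, the interleukin-1 alpha gene (0.81), Retnlg, a resistin-like gene that also stands in the neutrophil marker list (0.82), and Acod1, the itaconate-making enzyme of activated macrophages (0.90). A flat profile would lie 3.37 from Ptgs2. These genes were chosen by nearness to Ptgs2, so shared extremes follow from the choice. All 5 had their highest value in CST mouse 1 and their lowest in Yoda1 mouse 2, as Ptgs2 had. Hcar2 ran from 231 to 14.0 FPKM and Retnlg from 318 to 6.10. Nearest to Alox5ap were Fndc1 (0.25), Tmem37 (0.29), Fermt3, the integrin activator of blood cells (0.32), Galnt16 (0.37) and Hexa, a lysosomal hexosaminidase subunit gene (0.37), where a flat profile lies 2.11 away. Hexa, for one, measured 126 and 144 FPKM in Yoda1 mice 1 and 2 and 27.7 in Yoda1 mouse 3.

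**Figure D3:**
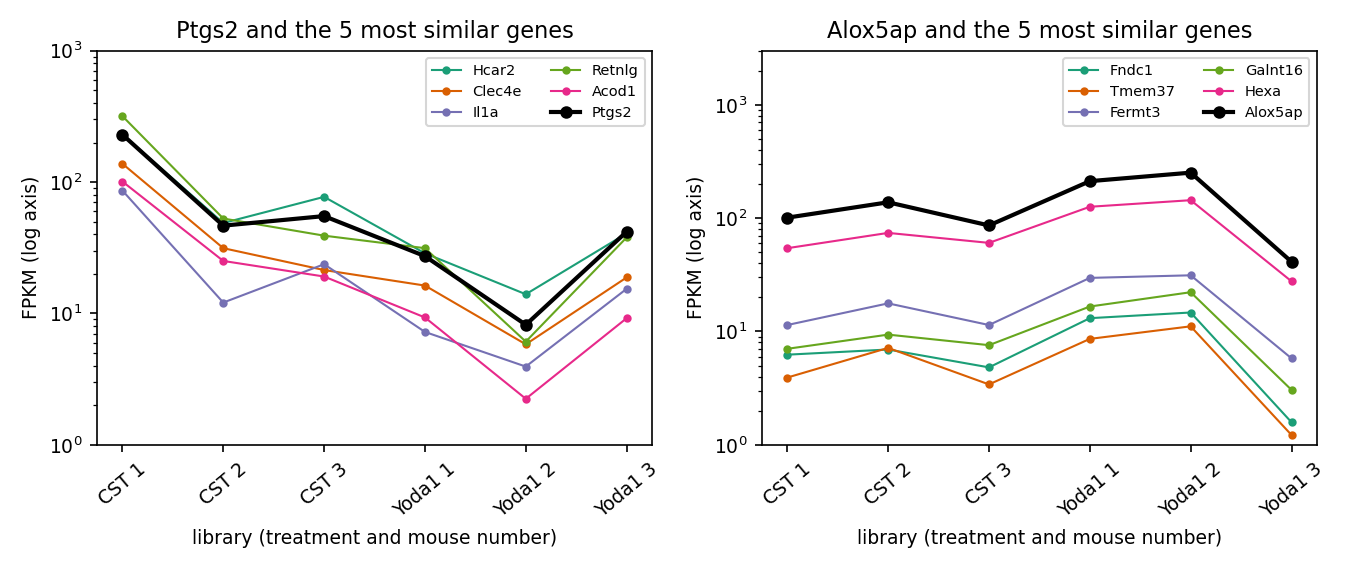
FPKM on a log axis in the 6 libraries for Ptgs2 (left, black) and Alox5ap (right, black), each with its 5 nearest genes by profile; lines join the libraries of a gene as a guide only. On the left all genes peak in CST 1 and are lowest in Yoda1 2, and on the right all peak in Yoda1 2 and are lowest in Yoda1 3. The genes were chosen by nearness of profile, so shared extremes follow from the choice.

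Markers of immune and stromal cells moved across the same libraries. The 10 neutrophil markers summed to 11098, 1817 and 1739 FPKM in the CST mice and 1603, 699 and 4112 in the Yoda1 mice; 7 of 10 were tested, all 7 with a positive difference (median 0.94), and Ly6g was listed at 0 in some libraries. Set against that sum, Ptgs2 came to 2.07%, 2.56% and 3.17% of it in the CST mice and 1.70%, 1.17% and 1.02% in the Yoda1 mice. These shares did not overlap, but S100a9 and S100a8, which keratinocytes of wounded skin also make, held 65.7% and 29.7% of the mean sum. Set against single markers, Ptgs2 had groups that did not overlap for those 2 genes and overlapping groups for the other 5 tested, Csf3r, Cxcr2, Retnlg, Mmp8 and Mmp9. Relative to Retnlg it measured 0.722, 0.882 and 1.41 in the CST mice and 0.870, 1.34 and 1.11 in the Yoda1 mice. Retnlg was among the 5 genes nearest to Ptgs2 by profile, so a narrow ratio to it was given in advance. Shares and ratios were computed after the data were seen and have no test, and the part of neutrophils in the Ptgs2 values was not tested.

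The 7 macrophage markers summed to 1098, 1399 and 1023 FPKM in the CST mice and 2566, 3592 and 820.4 in the Yoda1 mice, all 7 with a negative difference (median -0.83). The libraries stood in the same order by this sum as by Alox5ap, from Yoda1 mouse 2 at the top to Yoda1 mouse 3 at the bottom. Alox5ap came to 9.19%, 9.89% and 8.42% of the sum in the CST mice and 8.25%, 7.02% and 5.02% in the Yoda1 mice, a span far narrower than its 6.13-fold range in FPKM, with the CST shares above the Yoda1 shares. The lowest CST share, 8.42%, lay close above the highest Yoda1 share, 8.25%. C1qa, C1qb and C1qc held 33.5%, 25.4% and 19.8% of the mean sum. Against single macrophage markers the groups overlapped for 5 of 7 and did not for C1qb and C1qc. The 6 fibroblast markers summed to 3754 to 6121 in CST and 11409, 10134 and 3616 in Yoda1 skin. Like Alox5ap, this fibroblast sum was highest in Yoda1 mice 1 and 2 and lowest in Yoda1 mouse 3. That pattern was therefore not particular to the macrophage markers. Ltc4s too was highest in Yoda1 mice 1 and 2. Ltc4s came to 0.553%, 1.29% and 2.30% of the macrophage sum in the CST mice and 2.65%, 1.14% and 0.792% in the Yoda1 mice. Against the fibroblast sum, CST mice 1 to 3 had Ltc4s shares of 0.162%, 0.296% and 0.437%, and Yoda1 mice 1 to 3 had 0.597%, 0.404% and 0.180%. Both shares overlapped between the groups and varied more over the libraries than the Alox5ap share did. Mast cells are known to make leukotriene C4. The sum of their 7 markers ran from 129 to 199.7 in CST and from 101 to 288 in Yoda1 skin. It was highest in Yoda1 mouse 1, where Ltc4s was highest as well, and next in CST mouse 2, where Ltc4s measured 18.1. The fibroblast (11409) and adipocyte (1379) sums were highest in Yoda1 mouse 1 too. Eosinophil and basophil markers were near 0 (at most 2.10 FPKM summed over 5 genes), and Epx was listed at 0 in all libraries. The part of any of these cells in the Alox5, Alox5ap and Ltc4s values was not tested.

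**Figure D4:**
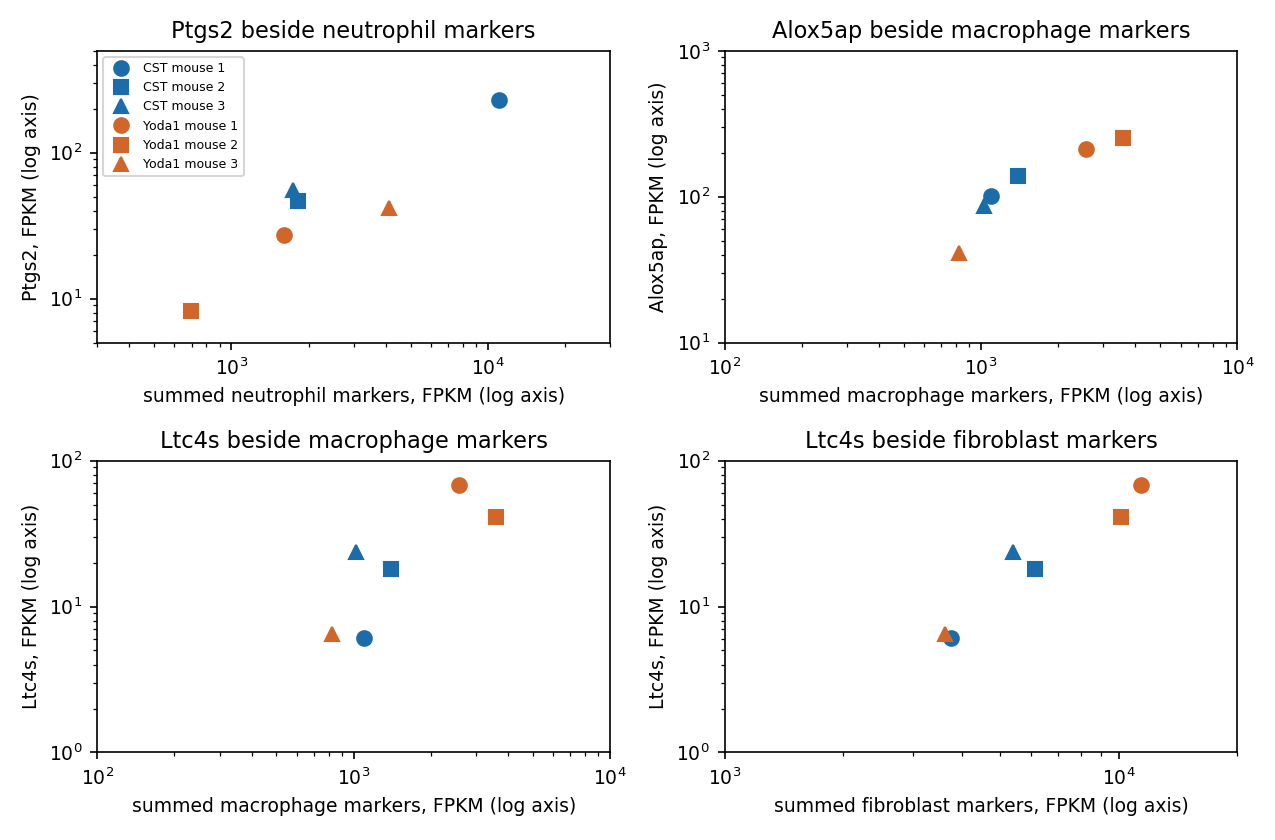
Each point is a library (blue CST, orange Yoda1, the shape gives the mouse number), with the summed FPKM of a marker list on the horizontal log axis and the FPKM of Ptgs2, Alox5ap or Ltc4s on the vertical log axis. Alox5ap rises with the macrophage sum through all 6 points, while for Ptgs2 the neutrophil sums of CST mice 2 and 3, 1817 and 1739, are close to that of Yoda1 mouse 1, 1603, and the other 3 libraries lie at 699, 4112 and 11098.

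Elsewhere in the pathway no gene was called either. Of 54 other genes in 7 lists 53 had a row under their symbol (Ptgr3 had none) and 40 were tested. The 40 had 26 positive and 14 negative differences, 0 calls in either direction and a median of 0.19 beside -0.01 for all tested genes. Over all tested genes 6882 differences were positive and 7706 negative. Sign counts here and below have no test, and genes of the same libraries can vary together. In 3 of the 40 the CST values all lay above the Yoda1 values (4.52% of all tested genes) and in 1 below (2.08%).

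Upstream, of the phospholipases that release arachidonic acid 11 of 15 were tested, 9 positive and 2 negative (median 0.25), with 0 calls in either direction. The level was carried by Pla2g2f, a secreted phospholipase of the upper epidermis, at 172, 161 and 252 FPKM in the CST and 114, 126 and 206 in the Yoda1 mice. Pla2g3, another secreted form, measured 1.72, 1.16 and 2.27 in the CST and 0.932, 0.993 and 0.925 in the Yoda1 mice, groups that did not overlap (difference 0.46, SE 0.23; limma adjusted p = 1.000). Pla2g4f (0.44) and Pla2g12a (0.36) had overlapping groups.

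Cyp4f18, the cytochrome P450 of mouse neutrophils that hydroxylates and so disposes of leukotriene B4, had the smallest p of the 40 genes. It measured 275, 76.5 and 92.6 FPKM in the CST mice and 55.2, 34.8 and 37.2 in the Yoda1 mice. The groups did not overlap, with CST mouse 1 far above the rest as for Ptgs2. The difference was 1.57 (SE 0.47, 95% interval 0.48 to 2.65; limma adjusted p = 0.663). Ggt1, a gamma-glutamyl transferase that can turn leukotriene C4 into D4, also had groups that did not overlap, 0.381, 1.62 and 6.85 FPKM against 0.0776, 0.353 and 0.0483 (1.40, SE 0.57; limma adjusted p = 1.000). Its level was low, with 2, 9 and 1 reads in Yoda1 mice 1 to 3, and CST mouse 3 carried most of the CST mean. Dpep1, a dipeptidase of the next step, had a difference of 0.47 with overlapping groups. Of the 6 genes tested for leukotriene conversion and removal, 5 had positive differences and 0 were called in either direction. The negative one was Ggt5, another gamma-glutamyl transferase gene, at a higher level than Ggt1. Its means were 7.28 FPKM in CST and 10.7 in Yoda1 mice, with overlapping groups (-0.37, SE 0.41).

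Tested prostanoid receptor genes went the other way in sign: all 4 had negative differences (median -0.41), 0 of them called, and 5 of the 9 lay below the filter. Among those 5, Ptgdr had CST values above the Yoda1 values, 0.292 to 0.403 against 0.214 to 0.286 FPKM. Ptgfr, the prostaglandin F2 alpha receptor, measured 5.01, 5.27 and 2.55 FPKM in the CST and 7.67, 6.06 and 5.72 in the Yoda1 mice, without overlap (-0.54, SE 0.28; limma adjusted p = 1.000). Ptgir, the prostacyclin receptor, measured 2.45 ± 1.08 and 3.91 ± 1.43 FPKM (SD, n = 3; -0.52). Of the leukotriene receptor genes 3 of 4 were tested, 1 with a positive and 2 with a negative difference (median -0.14). The other prostanoid synthases had a median of 0.05 over 8 genes, and transport and inactivation a median of 0.09 over 4. All 4 tested lipoxygenases of the skin barrier and related forms had positive differences (median 0.33, 0 called), among them Aloxe3, an epidermal lipoxygenase of barrier formation, at 26.3 ± 7.57 and 18.4 ± 2.38 FPKM (0.46).

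**Figure D5:**
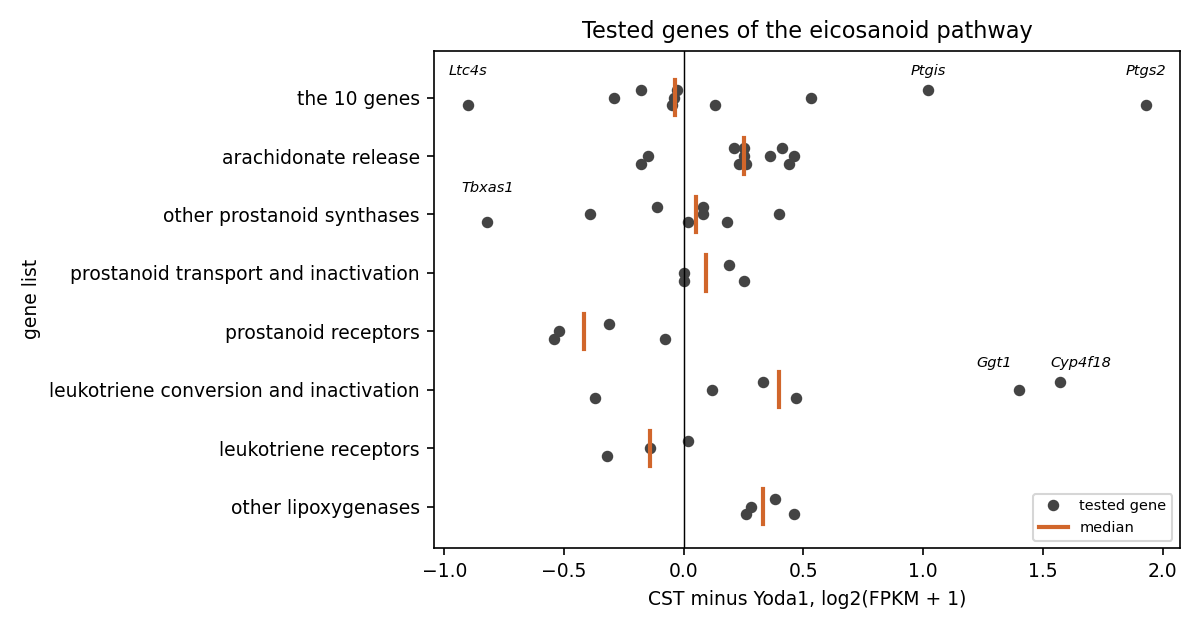
CST minus Yoda1 in log2(FPKM + 1) for the tested genes of the 10-gene group and of 7 further pathway lists; points are genes, spread vertically for legibility, and orange bars are list medians. Ptgs2 at 1.93 and Cyp4f18 at 1.57 lie farthest to the right, Ltc4s at -0.90 and Tbxas1 at -0.82 farthest to the left, and no gene passed the adjusted threshold.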

How the data were processed

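The authors deposited 1 table of FPKM values for 57010 genes in 6 skin libraries, with no counts. Per the submitters' processing notes the builds were GRCm38 and mm10; aligner, counter and strandedness: not given in the sources used here. Of 52029 identifiers found in GENCODE M21 on GRCm38, 2.81% had the deposited start, so positions are those of GENCODE M21. Groups came from the sample titles. Whole reads and depths were recovered from the FPKM steps. With these depths all 30697 genes above 0 in any library gave whole reads within 0.0001. With wrong depths 0% of 2000 genes above 0 in all 6 libraries did, a narrower set of genes. Each wrong depth was shifted by its own factor, so an error of scale shared by all libraries was not tried. Figures on depth cover counting error only. Differences were tested with lmFit and eBayes (with trend) of limma 3.58.1, R 4.3.3, on log2(FPKM + 1) of genes averaging 1 FPKM or more, two-sided, threshold 0.05. The fit was also run on simulated data. Those counts had the same scatter for all genes and no outlying libraries, so that run does not cover the spread between these mice. A pseudocount of 1 understates changes of low genes. Antisense genes overlap exons of Alox5ap, Ltc4s, Ptgis and Ptgs1, each at a mean of at most 0.448 FPKM; without known strandedness their reads cannot be told apart. The 10 genes and the lists were chosen with earlier results of these data known. Of the lists, the 10 genes with the smallest p, and the 5 genes nearest by profile to Ptgs2 and Alox5ap (predicted and clone names left out) were named by rule, and other genes, such as Tbxas1, were named after their values were seen.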

Additional observations from a re-analysis of the deposited data

How the results depend on the processing

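Of 170 values of the 10 genes over 17 alternatives each, 157 kept their direction and side of the threshold, 1 passed it (Ltc4s with library weights, above) and 12 changed sign without being called. Ptgs1, Ptgs2, Ptgis and Ltc4s never changed sign. Ptges was 0.20 with library weights, 0.26 without both CST mouse 1 and Yoda1 mouse 3, 0.10 without CST mouse 3 and 0.30 without Yoda1 mouse 3. Ptgds was -0.08 and Alox5 0.05 without CST mouse 3. Hpgd was 0.16 when CST mouse 2 was left out and 0.03 without Yoda1 mouse 3. Without Yoda1 mouse 1, Alox5 was 0.17 and Alox5ap 0.05. Alox5ap was 0.18 without Yoda1 mouse 2, and Lta4h 0.03 without CST mouse 1. With 1 library or that pair left out, these 6 genes spanned -0.28 to 0.30 (Ptges), -0.08 to 1.11 (Ptgds), -0.26 to 0.16 (Hpgd), -0.77 to 0.17 (Alox5), -1.11 to 0.18 (Alox5ap) and -0.09 to 0.03 (Lta4h). The cause of these changes was not tested. Leaving out 1 library in turn, the differences in log2 ratio ran from 0.98 to 2.28 for Ptgs2 to Ptgs1, from -0.28 to 0.27 for Ptges to Hpgd (0.44 without the pair, -0.09 and -0.13 without Yoda1 mouse 1 or 2) and from -0.46 to 0.25 for Alox5ap to Alox5 (0.05 without CST mouse 1). Library weights called 1348 genes, among them 1 of the 10 genes and 4 of the other pathway genes (Ggt1, Cysltr1, Pla2g4f and Tbxas1). Leaving out 1 library gave 0 to 136 called genes (8 without CST mouse 2, 136 without Yoda1 mouse 2), with 0 of the 10 genes and 0 of the pathway genes. With the mouse number as a replicate block limma called 0 genes, and Ptgs2 kept 1.93 with an adjusted p of 0.330. Deviations of same-numbered mice from their group means had correlations of -0.08, 0.21 and -0.20. Each correlation sets 1 CST library against 1 Yoda1 library, so whether the numbers pair the mice cannot be told. Quantile normalization (1.88 for Ptgs2), scaling to the median (1.92) and limma-voom (2.00) left Ptgs2 near its value, whereas library weights gave 1.07 for Ptgs2, 1.06 for Ptgds, -0.77 for Alox5 and -0.78 for Alox5ap, none called.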
